A study of Mus musculus with 32 samples.

Results

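The genes of the voltage-gated calcium channel subunits were followed across 32 arrays of mouse frontal cortex. They were chosen by name, as every probe of the table whose gene symbol is Cacna1a, Cacna1b, Cacna1c, Cacna1e, Cacna1g, Cacnb1, Cacnb2, Cacnb3, Cacnb4 or Cacna2d1. Of these 10 genes, 9 had probes here, 23 in all, out of 25697 probes of 18138 gene symbols. Cacna1e, the pore of R-type channels, had none in this table. After a filter on dim probes, 10 probes of 6 of the genes were tested, beside 10187 probes of 7926 genes in all.

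Each array held labelled RNA from the frontal cortex of 1 female F1 hybrid mouse, which the labels give as C57BL/6J x FVB/NJ F1 and the Methods as coming from reciprocal crosses of these strains. For the 20 ethanol mice, a bottle of 20% ethanol stood beside one of water for a limited session in the dark phase, on 20 days, and the mice were killed after the last one. The 12 controls are called matched in the Methods, which describe no other treatment of them. The exact age of the mice was not stated, and the paper's Discussion places the 20 days of drinking in early adulthood. The tissue was the dorsal part of a rostral coronal section that holds association, cingulate, prelimbic and motor cortex. There were 8 ethanol mice on each of chips 1 and 2, and 8 controls on chip 4. On chip 3, the 4 ethanol mice were at odd and the 4 controls at even positions, so treatment and position cannot be told apart within it. On chips 1, 2 and 4 positions were balanced, but treatment and chip cannot be told apart between them. RNA was extracted in batches that each included ethanol and control samples, but which array came from which batch is not in the labels.

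Voltage-gated calcium channels open when a neuron depolarizes and let calcium enter, which triggers transmitter release at terminals and calcium signalling to the nucleus in the soma and dendrites. Each channel is built on a pore-forming alpha1 subunit (L-type for Cacna1c, P/Q-type for Cacna1a, N-type for Cacna1b and low-threshold T-type for Cacna1g). All of these but the T-type pore assemble with an intracellular beta subunit (Cacnb1 to Cacnb4), which brings the pore to the membrane and sets its gating. They also carry an extracellular alpha2delta subunit, of which the product of Cacna2d1 is the binding site of gabapentin and pregabalin. Ethanol is known to inhibit several of these channels acutely.

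The results turn on the probes of the beta3 and beta4 genes and of Cacna2d1. A probe is a stretch of 50 bases that matches the mRNA, and is named here by the first base of its match in its own transcript. The sequences are shown because probes of 1 gene gave different values, so what was measured depends on which stretch was read. The array design marks Cacnb3 at 400 and Cacnb4 at 44 as probes of some isoforms only, and Cacnb3 at 2472 and Cacnb4 at 7482 as probes of all isoforms of their gene.
Cacnb3 at 400: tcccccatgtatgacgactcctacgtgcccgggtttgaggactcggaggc
Cacnb3 at 1745: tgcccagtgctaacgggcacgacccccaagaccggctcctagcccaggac
Cacnb3 at 1793: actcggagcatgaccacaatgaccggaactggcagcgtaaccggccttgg
Cacnb3 at 2472: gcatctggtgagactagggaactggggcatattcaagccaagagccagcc
Cacnb4 at 44: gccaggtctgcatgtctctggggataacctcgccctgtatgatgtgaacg
Cacnb4 at 2312: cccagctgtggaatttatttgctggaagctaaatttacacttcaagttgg
Cacnb4 at 7482: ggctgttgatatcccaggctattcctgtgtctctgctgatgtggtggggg
Cacna2d1 at 3786: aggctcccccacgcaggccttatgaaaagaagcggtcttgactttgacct

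The table places Cacnb3 at 2472 on the plus strand of chromosome 15, from 98474614 to 98474663, and Cacnb3 at 400 from 98465594 to 98465643. It places Cacnb4 at 7482 on the minus strand of chromosome 2, from 52284192 to 52284241, and Cacnb4 at 44 from 52413994 to 52414043. Cacna2d1 at 3786 lies on the plus strand of chromosome 5, from 15876797 to 15876846. For the tested probes of Cacna1a at 6 and of Cacnb2 at 2755 the table gives no genome position. The genome build of these positions is not given in the sources used here, and whether a probe lies in coding sequence was not determined. The Cacnb3 probes at 1745 and 1793 are neighbours in the transcript, upstream of the probe at 2472. GC content was 68% in the former and 60% in the latter, 56% at 2472, 56% in both tested Cacnb4 probes and 54% in the Cacna2d1 probe, against a median of 54% and a 95th percentile of 60% over all tested probes.

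A second set shows why Cacna1c, the L-type pore, cannot be described from more than 3 independent stretches. Of its 4 probes, 2 share 47 bases, which the capitals mark, shifted by a few bases against each other.
Cacna1c at 4259: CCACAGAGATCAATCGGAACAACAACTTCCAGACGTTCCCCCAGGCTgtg
Cacna1c at 5331: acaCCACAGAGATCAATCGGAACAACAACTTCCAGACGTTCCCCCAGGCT
Both were at background, with a detection p-value below 0.01 on 0 of 32 arrays.

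Detection, which compares a probe with negative control beads, divided the subunits by gene. All 4 Cacna1c probes were dim and were detected on 0, 0, 0 and 2 of 32 arrays. The 3 probes of Cacna1b, the N-type pore, were detected on 3, 22 and 15 arrays, and the 2 probes of Cacnb1, a beta subunit known best from skeletal muscle, on 8 and 20. None of these 3 genes had a tested probe, so no change can be given for the L-type and N-type pores or for beta1, and a dim probe does not show that the gene is silent. The other 6 genes had at least 1 probe detected on 31 or 32 arrays. Within these genes some probes were still dim, with 0 arrays for Cacnb4 at 2312 and for Cacna1g at 7329, 7 for Cacnb2 at 956 and 12 for Cacnb3 at 400. Each of the 10 tested probes was detected on all 20 ethanol arrays and on 11 or 12 control arrays, so none entered the test through 1 group alone.

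**Figure D1:**
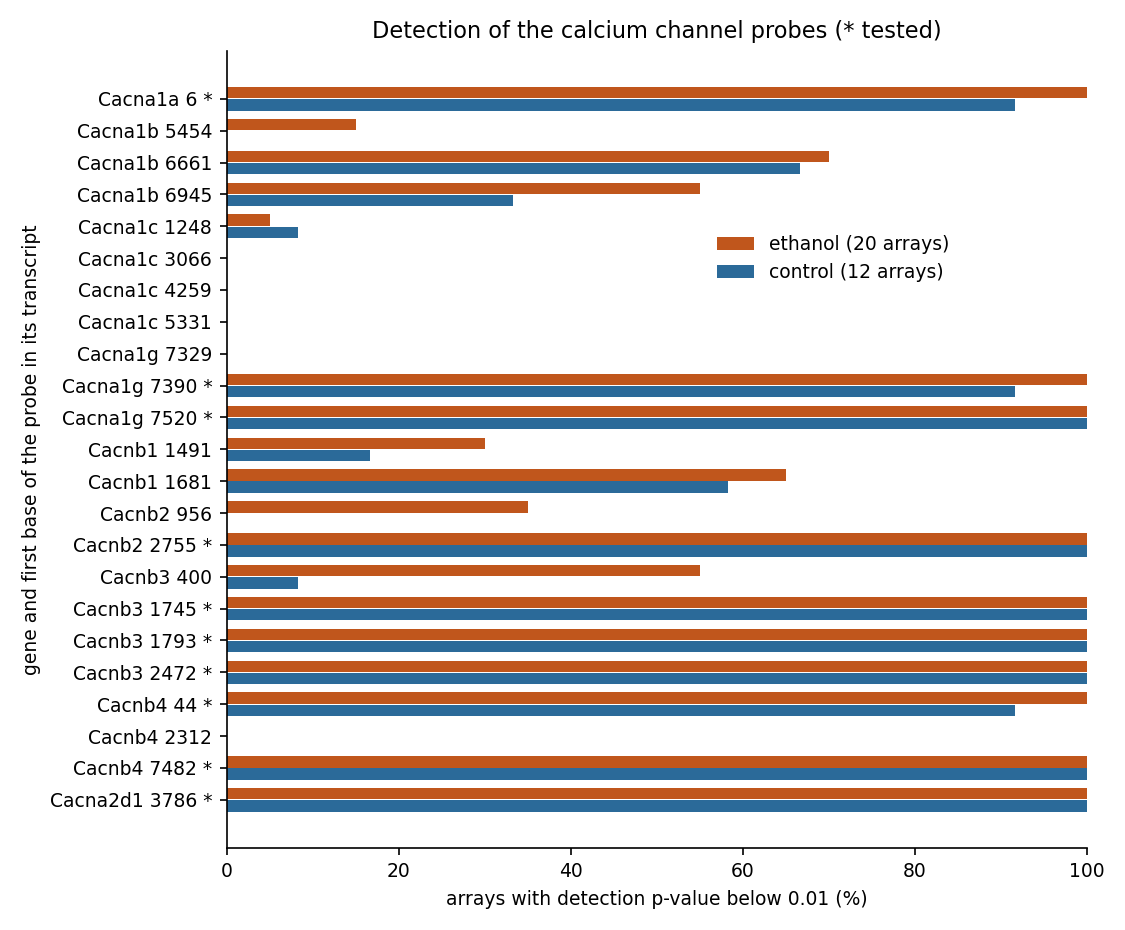
Share of arrays on which each of the 23 probes was detected (horizontal axis, percent of the 20 ethanol or 12 control arrays), with the gene and the first base of the probe on the vertical axis and tested probes starred. The tested probes were detected on all 20 ethanol arrays and at least 11 of 12 control arrays, whereas the Cacna1c probes were detected on at most 2 of 32.

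Between 10644 and 11544 probes were detected per ethanol array and between 9480 and 11413 per control array. Before normalization, an array's median signal was 166 to 203 in ethanol mice and 146 to 187 in controls. The part of these ranges in the detection of dim probes was not tested. Cacnb3 at 400, the isoform probe of beta3, was detected on 11 of 20 ethanol arrays and 1 of 12 control arrays, and Cacnb2 at 956 on 7 of 20 and 0 of 12. Other untested probes were nearer balance, with 14 of 20 and 8 of 12 for Cacna1b at 6661 and 13 of 20 and 7 of 12 for Cacnb1 at 1681. How often probes of the whole array were detected this unequally was not counted.

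The first question was which subunits differed between ethanol mice and controls. Values are variance-stabilized and quantile-normalized signals on a log2 scale. A probe was called at an adjusted p below 0.01 by limma, with the adjustment over all 10187 tested probes. Over the 32 arrays, Cacnb3, encoding beta3, fell, and Cacnb4, encoding beta4, rose. The fit had no term for chip, and both calls were lost with chip as a random block (-0.34 with an adjusted p of 0.020 for Cacnb3 at 2472, and 0.12 with 0.20 and 0.27 with 0.020 for Cacnb4 at 7482 and 44), where 78 of all 10187 probes were called. The calls rested on 3 of the 10 tested probes (Cacnb3 at 2472 and Cacnb4 at 44 and 7482), where 8.27% of all tested probes were called. At an adjusted p below 0.10 the probes of Cacna2d1 and Cacna1a were also higher, which made 5 of 10 probes, against 25.4% of all. With each gene taken at its brightest probe, the differences of the 6 genes ran from -0.30 to 0.37 with a median of 0.086, beside a median of -0.003 over all tested probes.

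Cacnb3, whose product pairs with pores of presynaptic and L-type channels, had its brightest probe at 2472. The value there ranged from 10.35 to 11.15 with a median of 10.62 in ethanol mice, and from 10.44 to 11.26 with a median of 10.97 in controls. The groups overlapped, with 1 of 20 ethanol mice above the control median and 2 below the lowest control. The means were 10.66 ± 0.20 (SD, n = 20) and 10.96 ± 0.24 (SD, n = 12), a log2 difference of -0.30 (standard error 0.072, 95% interval -0.45 to -0.16, adjusted p = 0.0033 by limma). On the linear scale this is a decrease to 0.811 of the control level. The call was kept when any 1 of the 32 arrays was left out, with differences from -0.35 to -0.28 and adjusted p from 5.7e-04 to 0.0087 by limma.

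The other tested probes of Cacnb3 did not pass. At 1745 the mean was 8.27 ± 0.17 (SD, n = 20) in ethanol mice and 8.30 ± 0.092 (SD, n = 12) in controls, a difference of -0.033 (95% interval -0.14 to 0.071, adjusted p = 0.70 by limma). At 1793 it was 8.74 ± 0.17 (SD, n = 20) and 8.76 ± 0.18 (SD, n = 12), a difference of -0.021 (95% interval -0.14 to 0.097, adjusted p = 0.84 by limma). Both intervals lie above the estimate of -0.30 at 2472. The difference between the changes of 2 probes was tested on the difference of their values within each array. Over the 32 arrays, treatment was shuffled without regard to chip or position, so the part of these in the p-values cannot be told apart. The change at 1745 exceeded that at 2472 by 0.27 and the change at 1793 exceeded it by 0.28, each with an adjusted p of 0.0031 (two-sided permutation test, 100000 resamples, Benjamini-Hochberg over 5 pairs of probes). The changes at 1745 and 1793 differed by -0.012 (adjusted p = 0.83, permutation test). On chip 3 the same 2 differences were 0.42 and 0.32 (adjusted p = 0.143 and 0.19, exact permutation test, 70 splits), which did not pass. The fall over 32 arrays was thus called at the downstream stretch, and not at the neighbouring pair upstream of it. That pair was dimmer, with median raw signals in ethanol mice of 303.1 at 1745 and 457.8 at 1793, against 1654 at 2472. No background was subtracted from these values, and the part of brightness in the unequal changes was not tested. With no filter on dim probes, the isoform probe at 400 was higher in ethanol mice by 0.13 (adjusted p = 0.019 by limma), but it was near background.

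Cacnb4, the gene mutated in the ataxic and epileptic lethargic mouse, was brightest at 7482. The value ranged from 11.38 to 11.76 with a median of 11.53 in ethanol mice, and from 11.08 to 11.60 with a median of 11.37 in controls. All 20 ethanol mice were above the control median, and 5 were above the highest control. The means were 11.55 ± 0.11 (SD, n = 20) and 11.38 ± 0.15 (SD, n = 12), a log2 difference of 0.17 (standard error 0.045, 95% interval 0.077 to 0.26, adjusted p = 0.0080 by limma), or 1.12-fold. This call stood close to its threshold. It was lost without any 1 of 15 arrays, those of ethanol mice A3, A11, A13, A19, A41, A44 and A45 and of controls C57, C59, C60, C62, C63, C64, C65 and C66. Without them the difference was 0.14 to 0.17, with an adjusted p of up to 0.020 by limma.

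The isoform probe of Cacnb4 at 44 ranged from 7.90 to 8.52 with a median of 8.05 in ethanol mice, and from 7.70 to 8.03 with a median of 7.91 in controls. Here 12 of 20 ethanol mice lay above the highest control. The means were 8.15 ± 0.21 (SD, n = 20) and 7.88 ± 0.12 (SD, n = 12), a log2 difference of 0.27 (standard error 0.061, 95% interval 0.15 to 0.39, adjusted p = 0.0020 by limma), or 1.21-fold. This call was kept without each of the 32 arrays, with differences of 0.25 to 0.29. The size of the difference depended on the background step and was 0.72 with normexp background (adjusted p = 0.0017 by limma). The changes of both Cacnb4 probes differed by 0.10 over the 32 arrays (adjusted p = 0.33, permutation test), so unequal changes were not detectable on these values. The same test was not run with normexp background. On chip 3 they differed by 0.34 (p = 0.0286, the smallest the 70 splits allow, adjusted p = 0.143, exact permutation test).

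**Figure D2:**
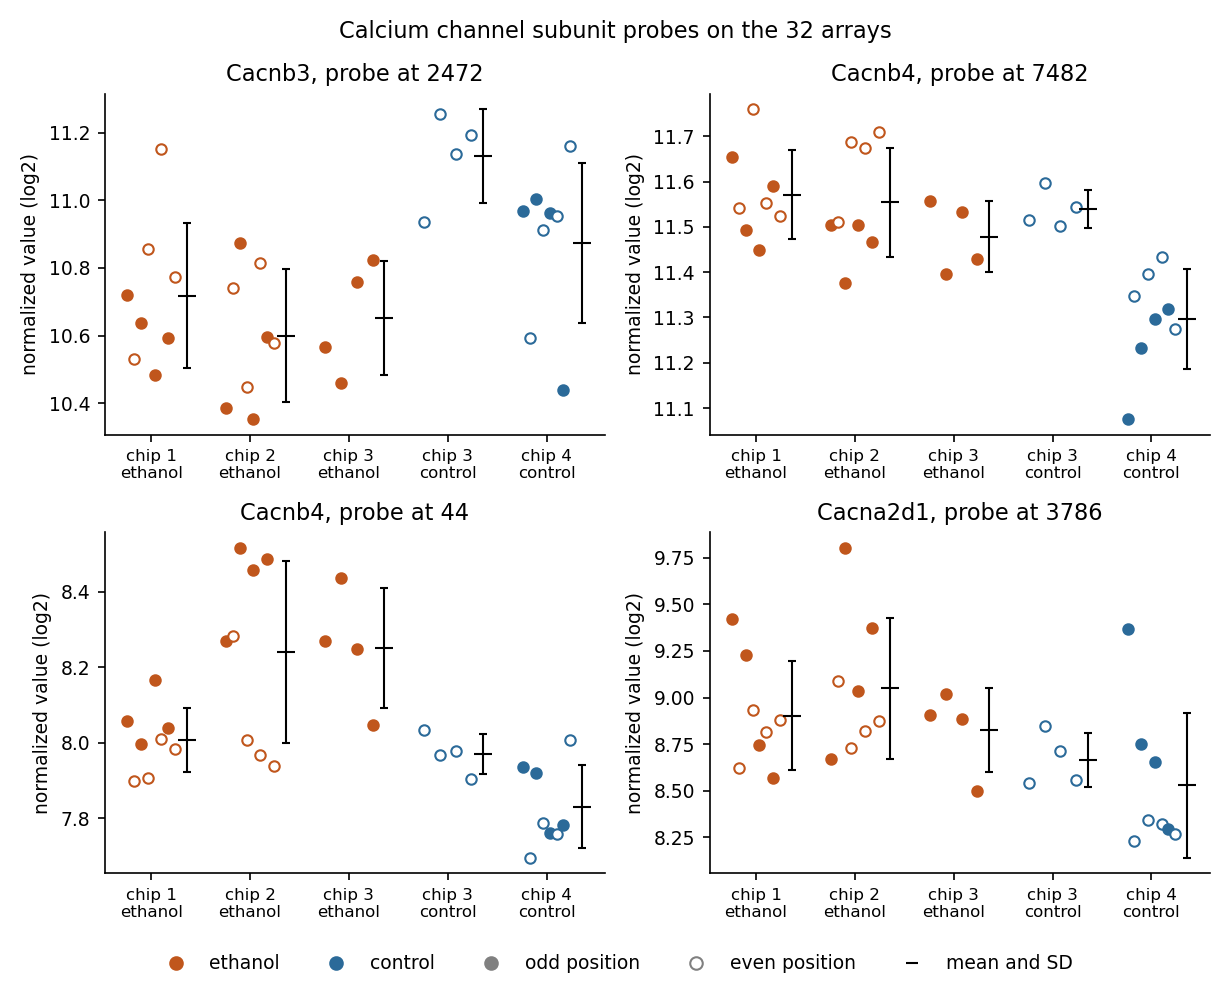
Normalized values (vertical axes, log2) of the probes of Cacnb3 at 2472, Cacnb4 at 7482, Cacnb4 at 44 and Cacna2d1 at 3786, 1 point per array by chip and treatment, filled at odd and open at even positions, with the mean and SD of each set. The mean of Cacnb3 is lower in all 3 sets of ethanol mice than in both sets of controls, whereas Cacnb4 at 7482 is as high in the controls of chip 3 (mean 11.54) as in the ethanol mice.

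Cacna2d1, encoding alpha2delta-1, showed the largest difference of the 10 tested probes and also the widest spread. Its value ranged from 8.50 to 9.80 with a median of 8.88 in ethanol mice, and from 8.23 to 9.37 with a median of 8.55 in controls. The control median was exceeded by 19 of 20 ethanol mice. The means were 8.95 ± 0.32 (SD, n = 20) and 8.58 ± 0.33 (SD, n = 12), a log2 difference of 0.37 (standard error 0.10, 95% interval 0.16 to 0.58, adjusted p = 0.012 by limma), or 1.29-fold, just outside the threshold. It passed when 1 of 5 arrays was left out, those of ethanol mice A11, A13 and A50 and of controls C54 and C57. The largest such change was without control C57, the highest control with 9.37, which gave 0.44 (adjusted p = 0.0019 by limma).

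The measured pores had smaller estimates. Cacna1a, encoding the P/Q-type pore that drives transmitter release at most central synapses, ranged from 7.83 to 8.11 in ethanol mice and from 7.72 to 7.98 in controls. The means were 7.93 ± 0.072 (SD, n = 20) and 7.84 ± 0.079 (SD, n = 12), a log2 difference of 0.087 (95% interval 0.023 to 0.15, adjusted p = 0.048 by limma). Its single probe was dim, with a median raw signal of 240.4 in ethanol mice and 202.5 in controls, and its match starts at base 6 of the transcript. Cacna1g, encoding a T-type pore that supports burst firing, had means of 8.91 ± 0.14 (SD, n = 20) and 8.83 ± 0.12 (SD, n = 12) at 7520, a difference of 0.084 (95% interval -0.011 to 0.18, adjusted p = 0.22 by limma). At 7390 the difference was -0.018 (95% interval -0.093 to 0.057, adjusted p = 0.78 by limma). Cacnb2, encoding the main cardiac beta subunit, had means of 8.04 ± 0.10 (SD, n = 20) and 8.06 ± 0.077 (SD, n = 12), a difference of -0.022 (95% interval -0.096 to 0.051, adjusted p = 0.72 by limma). In this fit over 32 arrays the intervals of these 3 probes of 2 genes reach at most 0.18 in size. On chip 3 alone Cacna1g at 7520 had 0.19 with a wider 95% interval of 0.020 to 0.35 (adjusted p = 0.14 by limma).

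**Figure D3:**
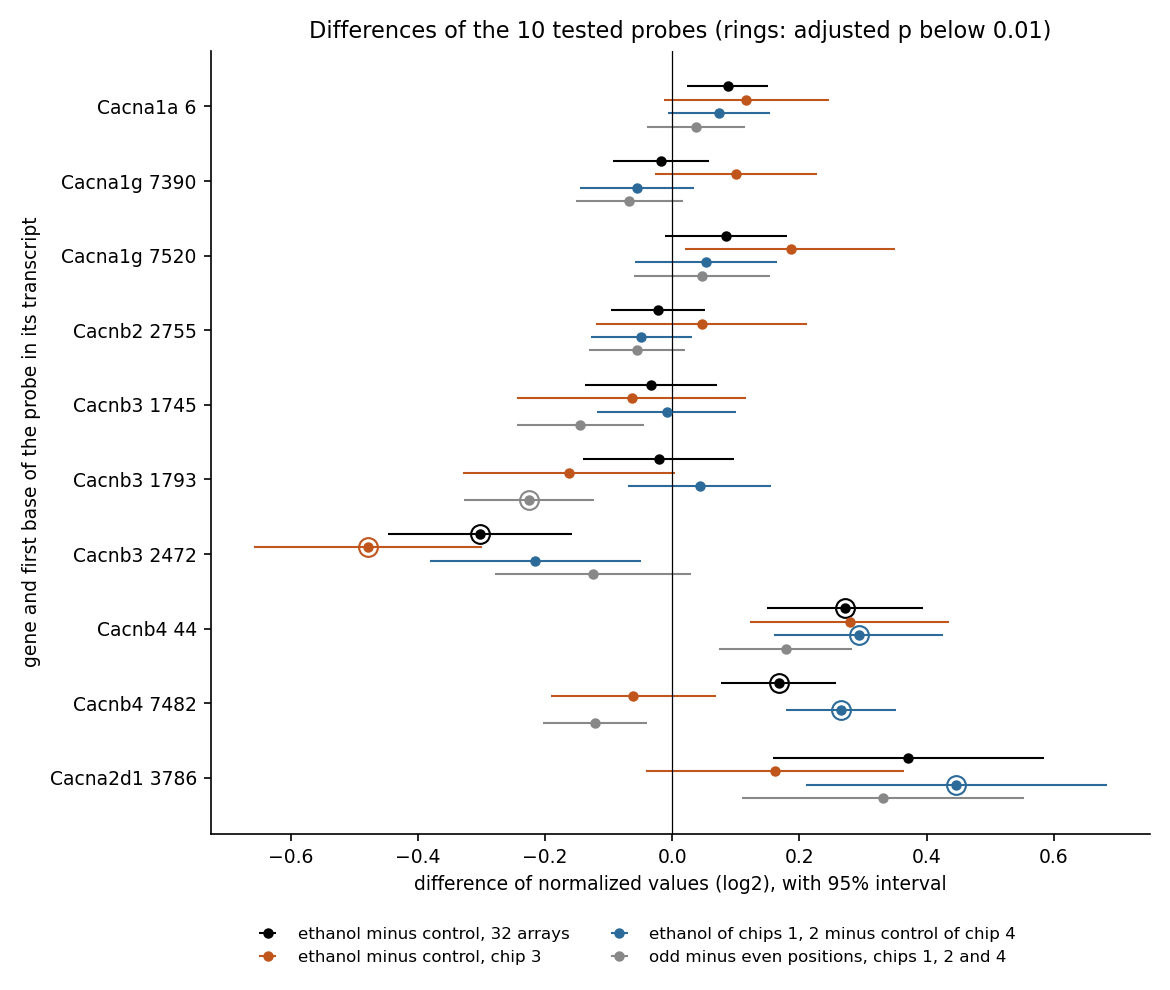
Differences of normalized values (horizontal axis, log2, with 95% intervals) of the 10 tested probes in 4 comparisons, with the gene and first base of each probe on the vertical axis and rings around those with an adjusted p below 0.01. Cacnb3 at 2472 is negative in all 4, Cacnb4 at 7482 is positive in both comparisons that include chip 4 against ethanol arrays and negative in the other 2.

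Chip 3, the only chip with both groups, was then examined alone. Probes were called there at an adjusted p below 0.10. Cacnb3 at 2472 was 10.57, 10.46, 10.76 and 10.83 in the 4 ethanol mice and 10.94, 11.26, 11.14 and 11.19 in the 4 controls. The groups did not overlap. The log2 difference was -0.48 (standard error 0.085, 95% interval -0.66 to -0.30, adjusted p = 0.0024 by limma). This probe alone among the 10 also passed an adjusted p of 0.01, which 3.33% of all tested probes did. Cacnb4 at 44 was 8.27, 8.44, 8.25 and 8.05 in the ethanol mice and 8.03, 7.97, 7.98 and 7.90 in the controls, again without overlap, a difference of 0.28 (standard error 0.074, adjusted p = 0.025 by limma). These 2 of 10 probes were called at 0.10, against 17.0% of all tested probes, and were the 2 of 10 whose groups were apart, against 15.2% of all. Both shares are near those of all probes. Summed levels of marker lists also stood apart between the groups of this chip. They were 20457 to 21695 in ethanol mice and 23736 to 27872 in controls for excitatory neurons, of whose 4 tested genes 4 were lower at an adjusted p below 0.10 (median difference -0.38). They were higher in ethanol mice, without overlap, for GABA neurons (20450 to 21155 against 17226 to 18891), astrocytes (19236 to 21566 against 15799 to 17469), endothelium (3733 to 4095 against 3287 to 3426) and olfactory bulb genes (3641 to 4206 against 1834 to 3055). By gene these lists were mixed. At 0.10, 2 of 5 GABA neuron, 3 of 6 astrocyte, 2 of 6 endothelial and 2 of 4 olfactory bulb genes were higher. In the olfactory bulb list 1 gene was lower (-0.79). The lowest differences in the GABA neuron, astrocyte and endothelial lists were -0.087, -0.145 and -0.06. Of the 6 oligodendrocyte genes 4 were lower at 0.10 (median difference -0.38), with overlapping sums of 17066 to 21092 and 18720 to 30863. Sums for microglia (2897 to 3251 and 2836 to 3167) and striatum (1564 to 1771 and 1752 to 2135) overlapped. The part of these shifts in the values of Cacnb3 and Cacnb4 was not tested.

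Cacnb4 at 7482 was 11.56, 11.40, 11.53 and 11.43 in the ethanol mice of chip 3 and 11.52, 11.60, 11.50 and 11.54 in its controls. These values overlapped, with a difference of -0.062 (95% interval -0.19 to 0.068, adjusted p = 0.57 by limma). Cacna2d1 was 8.90, 9.02, 8.88 and 8.50 against 8.54, 8.85, 8.71 and 8.56, a difference of 0.16 (95% interval -0.042 to 0.36, adjusted p = 0.30 by limma). Without ethanol mouse A50, which had the lowest of these values, Cacna2d1 passed with 0.27 (adjusted p = 0.040 by limma). Without control C56, Cacna1g at 7520 passed with 0.26 (adjusted p = 0.043 by limma), where all 8 arrays gave 0.19 (adjusted p = 0.14), and Cacnb3 at 1793 passed with -0.23 (adjusted p = 0.083), where all 8 gave -0.16 (adjusted p = 0.20).

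Between the 16 ethanol mice of chips 1 and 2 and the 8 controls of chip 4, with odd or even position in the fit, 3 of the 10 probes passed 0.01, where 14.1% of all did. Cacnb4 rose at 7482 by 0.27 (standard error 0.042, adjusted p = 3.5e-05 by limma) and at 44 by 0.29 (standard error 0.065, adjusted p = 0.0013), and Cacna2d1 by 0.45 (standard error 0.12, adjusted p = 0.0051). Cacnb3 at 2472 was lower by 0.22 on average, a difference of -0.22 (95% interval -0.38 to -0.050, adjusted p = 0.047 by limma). The rise of Cacnb4 at 7482 and the call of Cacna2d1 were thus made between chips and not within chip 3.

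The effect on chip 3 minus the effect between the other chips was tested as an interaction. For Cacnb4 at 7482 it was -0.33 (standard error 0.086, 95% interval -0.50 to -0.15, adjusted p = 0.014 by limma), which did not pass 0.01, where 2.74% of all probes did. It was the lowest adjusted p of the 10 probes, and the others had 0.23 or more. For Cacnb3 at 2472 the interaction was -0.26 (95% interval -0.58 to 0.052, adjusted p = 0.30) and for Cacna2d1 -0.29 (95% interval -0.77 to 0.20, adjusted p = 0.48), intervals too wide to tell equal from unequal effects. For Cacnb4 at 44 it was -0.014 (95% interval -0.28 to 0.26, adjusted p = 0.96).

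Comparisons without a difference in treatment gave the size of shifts from chip and position. The controls of chip 3 exceeded those of chip 4 at even positions by 0.18 for Cacnb4 at 7482 (95% interval 0.044 to 0.31, adjusted p = 0.089 by limma), about as much as the difference between treatments over all arrays. Their difference was 0.37 for Cacna2d1 (95% interval 0.0090 to 0.74, adjusted p = 0.20), 0.23 for Cacnb3 at 2472 (95% interval -0.034 to 0.49, adjusted p = 0.29) and 0.16 for Cacnb4 at 44 (adjusted p = 0.22). The ethanol mice of chip 3 differed from those of chips 1 and 2 at odd positions by -0.027 for Cacnb4 at 7482 (95% interval -0.14 to 0.088, adjusted p = 0.92 by limma), 0.0020 for Cacnb4 at 44, 0.072 for Cacnb3 at 2472 (adjusted p = 0.88) and -0.28 for Cacna2d1 (adjusted p = 0.53). In that comparison, chosen after the values were seen, 0 of 10187 probes passed 0.01 and 63 passed 0.10. Between the controls of chips 3 and 4, 189 of 10187 passed 0.01 and 1292 passed 0.10, with 1 of the 10 member probes among the latter. Between chips 1 and 2, which held ethanol mice only, Cacnb4 at 44 differed by -0.23 (adjusted p = 0.050) and the other 9 probes had adjusted p of 0.45 or more. Of all 10187 probes, 3 passed 0.01 and 395 passed 0.10 between these chips.

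Odd and even positions were compared on chips 1, 2 and 4, each of a single treatment. There Cacnb3 at 1793 was lower at odd positions by 0.23 on average, a difference of -0.23 (standard error 0.050, adjusted p = 0.0047 by limma). It was the 1 of 10 probes that passed 0.01, where 3.58% of all did. Cacna2d1 was higher at odd positions by 0.33 (adjusted p = 0.042) and Cacnb4 at 44 by 0.18 (adjusted p = 0.021). Cacnb4 at 7482 differed by -0.12 (adjusted p = 0.045) and Cacnb3 at 1745 by -0.15 (adjusted p = 0.049). Cacnb3 at 2472 differed by -0.13 (95% interval -0.28 to 0.029, adjusted p = 0.28). These 6 differences had the sign of the ethanol minus control difference of the same probe on chip 3. There ethanol mice sat at odd positions. Of the other tested probes, Cacna1a and Cacna1g at 7520 also kept the sign. Cacna1g at 7390 (-0.068 by position, 0.10 on chip 3) and Cacnb2 (-0.056 and 0.046) had opposite signs. The part of position in the chip 3 differences cannot be told apart.

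With odd or even position as a covariate over all 32 arrays, the same 3 probes passed 0.01, against 9.56% of all. The differences became -0.26 for Cacnb3 at 2472 (adjusted p = 0.0070 by limma), 0.21 for Cacnb4 at 7482 (adjusted p = 2.4e-04) and 0.23 for Cacnb4 at 44 (adjusted p = 0.0044). A fixed block for chip leaves chip 3 to carry the comparison, and with it no member gene passed 0.01, where 21 of all 10187 probes did. Cacnb3 at 2472 was then at -0.48 with an adjusted p of 0.039 by limma. With both chip and position in the fit it was at -0.35 (adjusted p = 0.42), and 2 of all 10187 probes were called.

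**Figure D4:**
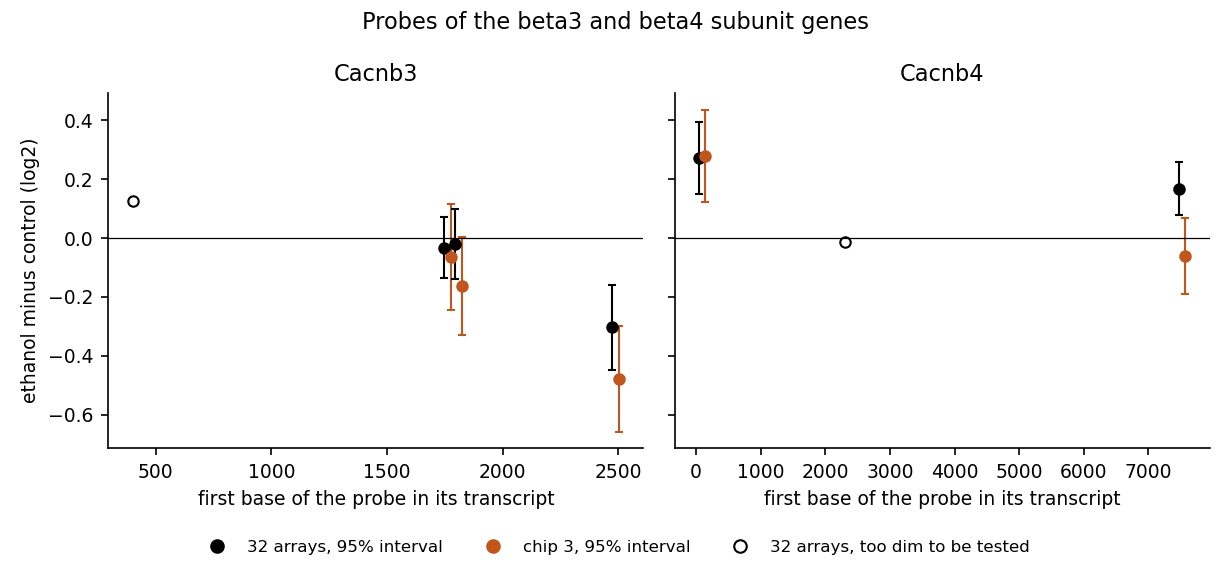
Ethanol minus control (vertical axis, log2) against the first base of each probe in its own transcript (horizontal axis) for Cacnb3 and Cacnb4, over 32 arrays (black) and on chip 3 (orange, drawn slightly to the right), with 95% intervals, and open points for dim probes that were not tested. Cacnb3 is negative with intervals below 0 only at 2472, and Cacnb4 at 7482 changes side between 32 arrays (0.17) and chip 3 (-0.062).

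Whether subunits vary together between mice was examined within sets of 4 arrays of the same chip, treatment and odd or even position, after each value was centred on the mean of its set. Of 20 relations, 5 between probes of 1 gene and 15 between the brightest probes of 2 genes, 0 passed an adjusted p of 0.05 (permutation within sets, 100000 resamples, Benjamini-Hochberg). At an unadjusted p below 0.05 there were 3. The probes of Cacnb4 at 44 and 7482 had a Pearson correlation of -0.55 (Spearman -0.54, p = 0.0037 and 0.0057, adjusted p = 0.058 and 0.097, permutation test, -0.42 without the 2 arrays farthest from the median). Cacna1a and Cacna2d1 had 0.42 (Spearman 0.45, p = 0.0058 and 0.0097, adjusted p = 0.058 and 0.097, 0.44 without those 2 arrays, permutation test). Cacna2d1 and Cacnb3 at 2472 had 0.50 (Spearman 0.41, p = 0.014 and 0.033, adjusted p = 0.093 and 0.22, 0.40 without those 2 arrays, permutation test), although their mean differences with treatment ran in opposite directions. The 3 pairs of Cacnb3 probes had correlations of 0.24 to 0.29. These positive values between probes of 1 gene were within what the permutations gave (adjusted p = 0.40).

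Other genes of the channel complex were taken from lists chosen by function. Of 8 further pore and alpha2delta genes, 3 were tested (Cacna1d, Cacna1h and Cacna2d3). On 32 arrays 0 of these passed, where 8.27% of all tested probes did, with differences of 0.0020 to 0.044. On chip 3 Cacna1h, encoding another T-type pore, passed 0.10 with 0.25 (adjusted p = 0.030 by limma). On chips 1, 2 and 4 Cacna1h was higher at odd positions by 0.15 (adjusted p = 0.044 by limma). With position as a covariate over 32 arrays its difference was -0.003 (adjusted p = 0.97 by limma). Among the gamma subunits and their relatives that carry AMPA receptors to the synapse, 4 of 8 genes were tested and 0 passed on 32 arrays. On chip 3, 3 of their 6 probes passed 0.10, against 17.0% of all tested probes. These were both of Cacng5 (0.45 and 0.31, adjusted p = 0.014 and 0.023 by limma) and 1 of Cacng3 (0.43, adjusted p = 0.042). Odd minus even positions on chips 1, 2 and 4 gave these Cacng5 probes 0.30 and 0.20 (adjusted p = 0.24 and 0.34 by limma). The same comparison gave the Cacng3 probe -0.22 (adjusted p = 0.23). Of 20 partners of the channels, such as release machinery, calmodulin and adaptor proteins, 9 were tested. Beside 8.27% of all tested probes, 1 of the 9 passed on 32 arrays. This was Stac2, an adaptor that binds L-type channels and slows their inactivation. It ranged from 9.33 to 9.79 with a median of 9.60 in ethanol mice and from 9.53 to 10.02 with a median of 9.75 in controls, and 19 of 20 ethanol mice lay below the control median. The means were 9.56 ± 0.14 (SD, n = 20) and 9.76 ± 0.14 (SD, n = 12), a log2 difference of -0.19 (standard error 0.049, adjusted p = 0.0056 by limma). On chip 3 it was -0.31 (adjusted p = 0.011), and Rims2, a scaffold of the release site, had -0.20 there (adjusted p = 0.073). Odd minus even positions on chips 1, 2 and 4 gave -0.15 for Stac2 and 0.001 for Rims2 (adjusted p = 0.043 and 0.99 by limma). For Rims2 the controls of chip 3 exceeded those of chip 4 at even positions by 0.30 (adjusted p = 0.022 by limma). The call of Stac2 on 32 arrays was lost with position as a covariate (-0.15, adjusted p = 0.013) and without control C56, C65 or C66, with differences of -0.17, -0.18 and -0.18.

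A pair of genes just outside the threshold was named after their values were seen. Rims1, a scaffold of the release site that binds beta subunits, had a difference of 0.20 (standard error 0.056, adjusted p = 0.010 by limma), which was -0.0040 on chip 3 (adjusted p = 0.98). Without any 1 of 9 arrays it passed (ethanol mice A7, A11, A20, A21 and A49, controls C52, C54, C55 and C57), with differences of 0.21 to 0.23. Rims1 also differed where treatment did not. Chip 1 minus chip 2, in ethanol mice only, was -0.23 (adjusted p = 0.043 by limma). The controls of chip 3 exceeded those of chip 4 at even positions by 0.28 (adjusted p = 0.044 by limma). Cacng3, an AMPA receptor auxiliary subunit, had differences of 0.34 (adjusted p = 0.021) and 0.21 (adjusted p = 0.076) at its 2 probes. The former passed without ethanol mouse A29 (0.38, adjusted p = 0.0075) or control C63 (0.39, adjusted p = 0.0081).

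In these bulk samples fewer cells of a type and less RNA per cell cannot be told apart. Markers of cortical excitatory neurons were lower in ethanol mice on the same arrays. Of 7 listed markers 4 were tested, and 3 fell (Nrn1 by 0.21, Slc17a7 by 0.26 and Tbr1 by 0.34 on the log2 scale, adjusted p = 0.0016, 0.0042 and 2.9e-04 by limma), and the 4th, Camk2a, had -0.093 (adjusted p = 0.33) at its brightest probe and 0.19 (adjusted p = 0.012) at another. The summed normalized level of the list ran from 18575 to 23042 with a median of 21069 in ethanol mice and from 19618 to 27872 with a median of 23297 in controls. Of the markers of GABA neurons 0 of 5 passed, although Gad1 was close at both its probes (0.31 and 0.27, adjusted p = 0.014 and 0.015), with summed levels of 19097 to 22946 in ethanol mice and 17226 to 21678 in controls. Of the astrocyte markers 1 of 6 passed, the water channel Aqp4, which rose by 0.53 (adjusted p = 9.2e-04), and the summed levels were 17510 to 23181 and 15799 to 23611. Of 6 oligodendrocyte, 7 microglia, 6 endothelial and 3 striatal genes 0 passed by their brightest probes. A dimmer probe of the oligodendrocyte gene Mbp rose by 0.60 (adjusted p = 0.0085 by limma). The brightest Mbp probe had -0.062 (adjusted p = 0.70) and the dimmest tested one -0.15 (adjusted p = 0.11). Summed levels were 16556 to 39209 and 14471 to 30863 for oligodendrocytes, 2748 to 3251 and 2836 to 3265 for microglia, 3421 to 4095 and 3287 to 4415 for endothelium and 1551 to 3572 and 1752 to 2361 for striatum. Of 4 olfactory bulb genes 1 passed, Islr2, which fell by 0.79 (adjusted p = 1.6e-05) and is not specific to that region, with summed levels of 1247 to 7127 and 1340 to 4784. The part of these shifts in the values of the calcium channel genes was not tested.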

How the data were processed

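Per the labels, RNA was hybridized to Illumina MouseRef-8 v2.0 arrays, 1 per mouse. The authors deposited bead summary intensity values on a linear scale, not normalized, and for each value a detection p-value. They also deposited, as other values, how many beads were read and the standard error across them. The software and background step behind these are not given in the sources used here. Intensities were variance-stabilized after the lumi method that the Methods name, rewritten here, and quantile-normalized in R 4.3.3 with limma 3.58.1. A probe was tested where detection passed p = 0.01 on 24 or more of the 32 arrays, by limma without covariates after the Methods, with Benjamini-Hochberg adjustment over all 10187. A gene counts by its brightest tested probe. Permutation tests were run in Python 3.11.15 with numpy 2.4.6 and scipy 1.17.1. The test of unequal changes of 2 probes, marker sums on chip 3 and ethanol mice of chip 3 against those of chips 1 and 2 were added after the values were seen. Named are all probes of the members, and genes of the 3 lists of subunits and partners called at 0.01. The members and lists were chosen with earlier results of these data known. The number of arrays limits the precision, and the median SD within chip, treatment and position was 0.108. The fits were tested on simulated data. Alternatives were other transforms, background, scaling, filters, chip and position terms, array weights and leaving out each array.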

Additional observations from a re-analysis of the deposited data

Results flagged for a closer look

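The probe of Cacna2d1 at 3786 had 1 array far from the rest of its set. On chip 4, control C57 had a value of 9.37 (9.365), where the other 7 controls of that chip lay between 8.23 and 8.75, a gap of 0.539 of the whole range. Of 50 sets of arrays examined this way, 1 had such an array, which is no more than the about 1 in 20 given by chance. Without this array the difference between ethanol mice and controls was 0.44 (adjusted p = 0.0019 by limma), where all 32 arrays gave 0.37.

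The probe of Cacnb4 at 7482 differed between parts of the design. Its effect of ethanol on chip 3 was lower by 0.33 than the effect between chips 1 and 2 and chip 4, an interaction of -0.33 (-0.327, adjusted p = 0.014 by limma). On chip 3 treatment coincides with odd or even position, and between the other chips it coincides with chip, so that these cannot be told apart.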

How the results depend on the processing

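No paired analysis was possible because ethanol mice and controls share no replicate numbers in the labels. Of the 6 tested member genes, 2 were called on 32 arrays. The number was 1 with normexp background and with no filter on dim probes (Cacnb3 in both), 0 with median scaling, with chip as a fixed or random block and with chip and position together (135, 21, 78 and 2 of all 10187 probes called, against 842), and 4 at an adjusted p below 0.10. It was 1 to 3 when 1 array was left out. Cacnb3 at 2472 kept its direction in every alternative run. On chip 3 the number was 1, and 1 to 2 when 1 array was left out. Between chips 1 and 2 and chip 4 it was 2, and 0 with median scaling. Among other subunits and partners it was 1, became 2 with log2 of the signal, with probes detected on all arrays and with array weights (Stac2 and Rims1) and with position as a covariate (Rims1 and Cacng3, with Stac2 lost), and became 0 with median scaling, no filter and the 3 fits with chip. Of the relations between probes and genes 0 passed, and 2 passed with values not centred.

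Differences that changed sign were those of probes near 0, apart from Cacnb4 at 7482, Cacna2d1 and Rims1. With chip as a fixed block the value was -0.062 for Cacnb4 at 7482, 0.10 for Cacna1g at 7390, 0.046 for Cacnb2 and -0.0037 for Rims1. With chip and position it was -0.17 for Cacna2d1, 0.17 and 0.10 for the same Cacna1g and Cacnb2 probes, 0.081 and 0.063 for Cacnb3 at 1745 and 1793, and -0.024 for Rims1. With median scaling Cacna1g at 7390, Cacnb2 and the same 2 Cacnb3 probes had 0.0037, 0.0031, 0.0051 and 0.036. With position as a covariate these Cacnb3 probes had 0.00024 and 0.037, and with chip as a random block Cacna1g at 7390 had 0.0079. When 1 array was left out Cacnb3 at 1793 ranged from -0.048 to 0.0059 over 32 arrays, and Cacnb2 on chip 3 from -0.023 to 0.12. The correlation of both Cacnb4 probes, -0.55, was 0.096 with values not centred. The causes were not tested. Dim probes limit what can be said of Cacna1b, Cacna1c and Cacnb1, and 4 arrays per group limit chip 3.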
